A study of Mus musculus with 12 samples.

Results

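The 2 arms of the microRNA precursor miR-7a-1, miR-7a-5p and miR-7a-1-3p (listed as mmu-miR-7a-5p and mmu-miR-7a-1-3p), were followed through small RNA libraries of mouse cardiac mitochondria. They were taken by name as 2 of the 932 rows listed, and both passed the filter of a mean of at least 1 RPM. They were chosen by their measured levels in db/db against wild-type (WT) libraries, above all the higher level of miR-7a-1-3p in db/db. That comparison is therefore a description here, and no test of the arms is read from it. The 12 libraries comprised 6 of cardiac mitochondria from db/db mice and 6 from WT mice. The db mutation disables the long, signalling form of the leptin receptor in every tissue, and mice with 2 such alleles grow obese and diabetic. The labels give heart as the tissue and mitochondrial microRNA as the fraction, and give no strain, age, sex, diet or treatment for either genotype. Samples are numbered 1 to 6 within a genotype, and whether each is a separate animal is not stated, so any spread or p-value below measures these samples and may be partly technical.

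A microRNA is cut from a hairpin as a short duplex of 2 arms. An Argonaute protein, such as Ago2, keeps one arm as the guide and the other arm is usually degraded, so that it is seen at a lower level in small RNA libraries. The guide finds its targets mainly through its seed, bases 2 to 8. The miR-7 family is conserved between insects and mammals and its guide is the 5p arm. It is best known from the brain, the pituitary and the pancreatic islet, where it restrains insulin secretion. The long noncoding RNA Cyrano pairs with the miR-7 guide and marks it for degradation, and the circular RNA Cdr1as carries many sites for it. Neither of these RNAs is measured in small RNA libraries.

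The sequences below are those of the 2 arms and of their relatives, from RefSeq on GRCm38.p6, with the seed in capitals. They are shown because the family rows can be told apart only by a few bases. All 5 names of the family matched an entry.
miR-7a-5p: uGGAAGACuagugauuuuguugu
miR-7b-5p: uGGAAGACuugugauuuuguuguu
miR-7a-1-3p: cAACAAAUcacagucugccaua
miR-7a-2-3p: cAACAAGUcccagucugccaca
miR-7b-3p: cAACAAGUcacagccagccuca
The guide miR-7a-5p is the same in the genes Mir7-1 on chromosome 13 and Mir7-2 on chromosome 7, so its row cannot say which gene its reads came from. miR-7b-5p, from Mir7b on chromosome 17, has the same seed and differs from miR-7a-5p by 1 substitution, A10U, counted from 1 at the 5′ end over the 23 bases that both share. It also has 1 more base at its 3′ end, with a length of 24 bases. The other arm does name its gene. miR-7a-1-3p differs from miR-7a-2-3p by 3 substitutions (A7G, A10C and U21C, the base of miR-7a-1-3p first), of which A7G lies in the seed. It differs from miR-7b-3p by 5 (A7G, U14C, U16A, A20U and U21C). No other mature mouse microRNA in that sequence table has the seed of miR-7a-1-3p, AACAAAU. The seed of the guide, GGAAGAC, is found there in miR-7a-5p and miR-7b-5p.

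The hairpin of Mir7-1 lies on the minus strand at chr13:58392779-58392886 of GRCm38, a build older than the GRCm39 of the deposited values, inside the gene of the RNA-binding protein Hnrnpk. In GENCODE M21 it sits in an intron of all 12 Hnrnpk transcripts that span it, on the same strand. In the 8 of these that are protein-coding, the nearest exons end 309 bases upstream and begin 302 or 362 bases downstream. The hairpin is shown with both arms in capitals, the guide first.
Mir7-1 hairpin: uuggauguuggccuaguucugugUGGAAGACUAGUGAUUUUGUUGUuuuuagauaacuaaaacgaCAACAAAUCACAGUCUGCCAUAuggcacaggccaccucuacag
Its 108 bases hold the 2 arms 19 bases apart. In its minimum free energy fold of -46.8 kcal/mol, 19 of the 23 bases of miR-7a-5p paired with a base of miR-7a-1-3p.

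Values were in RPM, the reads of a row scaled to a common sum over all listed rows. The reads behind them were recovered from the table and ranged from 412749 in db/db library 6 to 1382046 in db/db library 5, so 1 read was worth 0.724 to 2.42 RPM. The defining microRNAs of cardiac muscle were present. miR-133a-3p, the most abundant of the 5 on the list, averaged 341153 ± 27552 RPM in db/db and 323867 ± 22817 RPM in WT libraries (SD, n = 6 each, here and for the next 4). miR-1a-3p averaged 53914 ± 16810 RPM in db/db and 62696 ± 11812 RPM in WT, and miR-499-5p 1341 ± 366 RPM in db/db and 1573 ± 162 RPM in WT. miR-208a-3p, which lies in an intron of the heart myosin gene Myh6, averaged 29.6 ± 17.1 RPM in db/db and 68.6 ± 42.4 RPM in WT, and miR-208b-3p 12.7 ± 5.64 RPM in db/db and 10.1 ± 9.59 RPM in WT. db/db library 6 and WT library 4 had the greatest mean distances to the other 11 libraries, at 46.6 and 48.0 on the log2(RPM + 1) scale. WT library 1 followed at 45.3, with no clear gap. db/db library 6 and WT library 4 also had the fewest reads of their genotype. The differences of the 2 arms in level, in share and in ratio are therefore also given without them. A bulk level cannot tell apart fewer cells of a type, less of an RNA per cell and a change in the purity of the mitochondrial fraction. That purity was not tested.

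miR-7a-1-3p was higher in all db/db libraries than in any WT library. In the 6 db/db libraries its lowest, median and highest levels were 15.2, 19.97 and 42.7 RPM. In the 6 WT libraries they were 0, 1.41 and 14.8 RPM. The groups did not overlap, but the gap between the lowest db/db and the highest WT library was 0.441 RPM, less than the worth of 1 read. Among the 646 rows tested, 2 were separated in this direction (0.310%) and 4 in the other (0.619%). The separation belongs to the values that chose the arm, so nothing further is read from it.

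The WT libraries themselves fell far apart on this arm. It was at 0 in WT libraries 1 and 4, where a count of 0 allows up to 4.58 and 5.44 RPM (3 reads in a library). It had 1 read each in WT libraries 2 and 3, at 1.58 and 1.25 RPM. WT library 5 had 8 reads (8.31 RPM) and WT library 6 had 13 reads (14.8 RPM, exact Poisson 95% interval 7.86 to 25.2). The interval of WT library 6 lay above the level of WT library 1, whose own interval reached 5.63 RPM, and overlapped those of 5 of the 6 db/db libraries. WT libraries 5 and 6 were also the deepest of their genotype, with 962697 and 880912 reads, and db/db library 5, the highest of all at 59 reads and 42.7 RPM, was the deepest of the 12. Other libraries were not ordered this way. db/db library 6, with the fewest reads (412749), was at 21.8 RPM, and WT library 3, with 801118 reads, was at 1.25 RPM. RPM is scaled to depth, and the part of depth in these levels was not tested. Such intervals and limits cover counting error alone, since PCR copies are not independent molecules.

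In the db/db libraries miR-7a-1-3p was seen every time, with 9 to 59 reads. Summed over each genotype, 128 of 4791472 reads in db/db and 23 of 4485235 reads in WT fell on this arm. That is 26.7 RPM (exact Poisson 95% interval 22.3 to 31.8) in db/db and 5.13 RPM (3.25 to 7.69) in WT. Both intervals cover the counting of summed reads and not the spread between libraries, so they do not compare the genotypes. The mean level was 24.0 ± 10.2 RPM in db/db and 4.32 ± 5.99 RPM in WT libraries (SD, n = 6 each), a ratio of 5.57, or 4.72 without db/db library 6 and WT library 4. One library moved this ratio most: without WT library 6, a value taken after the levels were seen, the WT mean was 2.23 RPM, the summed WT reads gave 2.77 RPM and the ratio was 10.8. With any other single library left out the ratio was 4.64 to 6.83.

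The guide, miR-7a-5p, differed less and its groups overlapped. Its lowest, median and highest levels were 22.0, 47.2 and 80.1 RPM in the 6 db/db libraries. They were 19.9, 31.4 and 45.8 RPM in the 6 WT libraries. db/db libraries 2, 3 and 4, at 62.2, 55.7 and 80.1 RPM, lay above every WT library, while db/db library 1, at 22.0 RPM, lay below 5 of the 6 WT libraries. The guide averaged 49.2 ± 20.9 RPM in db/db and 31.2 ± 8.82 RPM in WT libraries (SD, n = 6 each), a ratio of 1.58, or 1.53 without db/db library 6 and WT library 4. Summed reads gave 48.4 RPM (exact Poisson 95% interval 42.4 to 55.1) in db/db and 31.0 RPM (26.1 to 36.6) in WT. The intervals of summed reads leave out the spread between libraries, so they do not compare the genotypes.

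**Figure D1:**
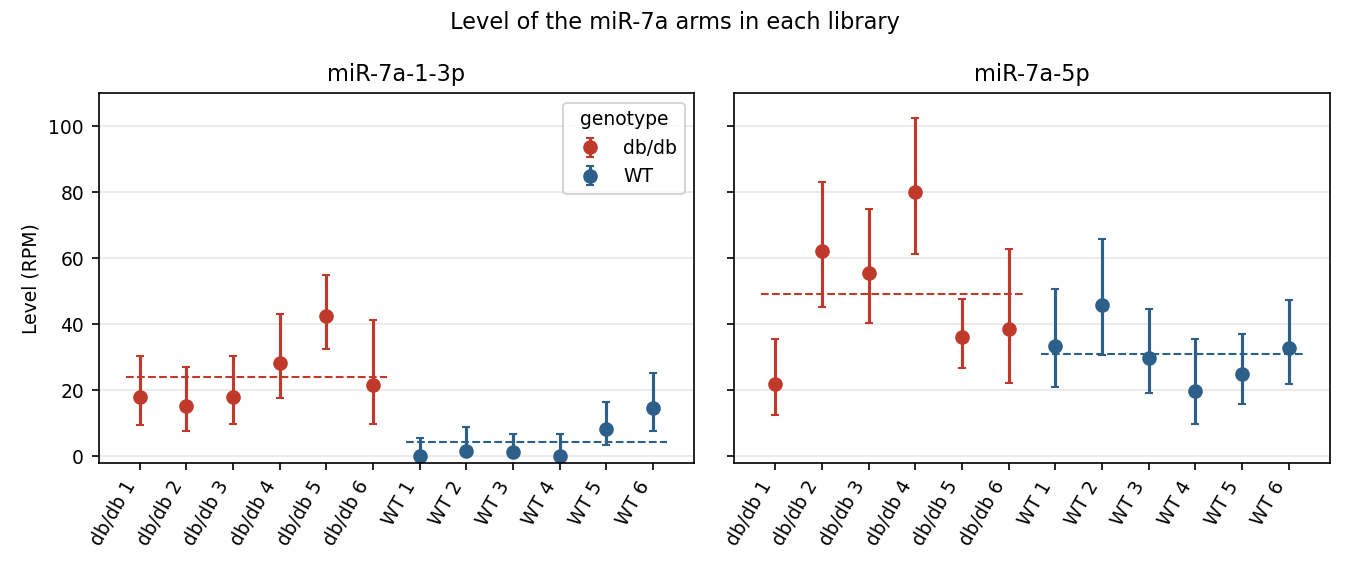
Level in RPM (y axis) of miR-7a-1-3p (left) and miR-7a-5p (right) in each db/db library (red) and WT library (blue). Bars are exact Poisson 95% intervals of the reads and dashed lines are genotype means; miR-7a-1-3p lay between 15.2 and 42.7 RPM in db/db and between 0 and 14.8 RPM in WT libraries, while the ranges of miR-7a-5p overlapped.

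On the scale of log2(RPM + 1), the difference of db/db minus WT was 2.94 ± 0.86 for miR-7a-1-3p and 0.57 ± 0.44 for miR-7a-5p (SE from limma over all 646 rows), and 2.62 and 0.50 without db/db library 6 and WT library 4. Over those rows the median difference was -0.04 and the 5th and 95th percentiles were -1.07 and 1.12. The value of miR-7a-1-3p was the largest of the 646, the next being 2.23 for miR-26a-2-3p, and 1.08% of rows had a difference of at least 2. That of miR-7a-5p ranked 143. With the reads fitted as counts, edgeR gave 2.38 and DESeq2 2.48 for miR-7a-1-3p, which then ranked 76 and 78 of 646 rows. The value for miR-7a-1-3p, whose WT libraries include zeros, also moved with the pseudocount, to 4.25 at 0.1 RPM and 1.29 at 10 RPM. Neither arm, 0 of 2, passed a limma adjusted p under 0.05 in a table where 1 of the 646 rows (0.155%) did. By edgeR 0 of 2 passed as well, with 3 rows called (0.464%). DESeq2 called 8 (4.71%) of the 170 rows for which its adjusted p was not missing, and it was missing for both arms. The arms were chosen by this contrast, so whether they pass is a description and no test of them.

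**Figure D2:**
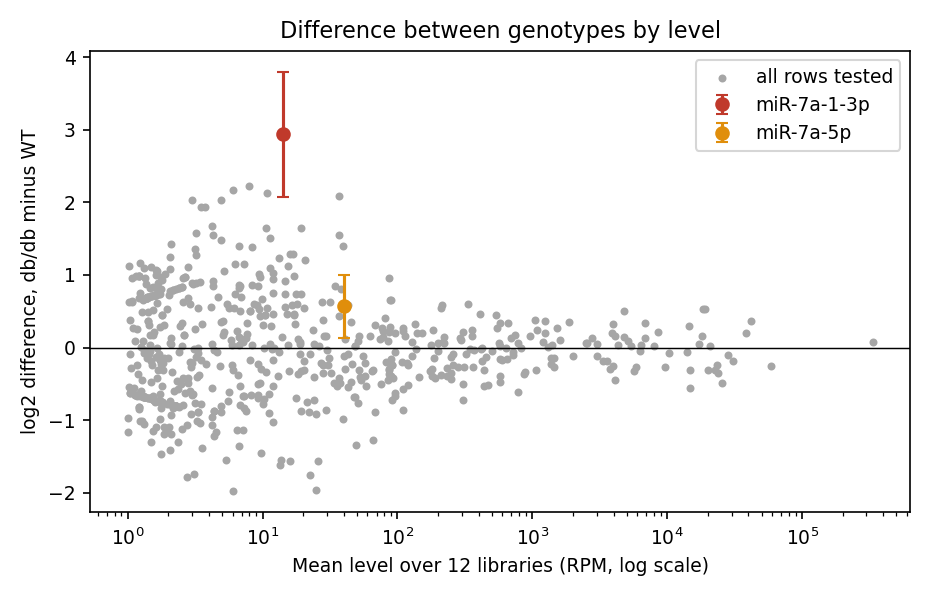
Difference of db/db minus WT on the log2(RPM + 1) scale (y axis) against mean level in RPM on a log axis (x axis), with 1 grey point for each of the 646 rows tested. miR-7a-1-3p (red, 2.94 ± 0.86) and miR-7a-5p (orange, 0.57 ± 0.44) are drawn with their SE; the spread of all rows widens at low levels.

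The balance between the arms was then set out library by library. The guide had more reads than the other arm in 11 of 12 libraries. The exception was db/db library 5, with 59 reads of miR-7a-1-3p and 50 of miR-7a-5p. The share of miR-7a-1-3p among the reads of both arms had a lowest, median and highest value of 19.6, 31.1 and 54.1% in the db/db libraries. In the WT libraries these were 0, 3.67 and 31.0%. The shares averaged 34.2% ± 13.3 in db/db and 10.5% ± 13.7 in WT libraries (SD, n = 6 each), and the groups overlapped. The difference was 23.7 percentage points, or 21.2 without db/db library 6 and WT library 4. WT libraries 5 and 6, at 25% (exact binomial 95% interval 11.5 to 43.4) and 31.0% (17.6 to 47.1), lay within the db/db range. The other 4 WT libraries were at 0 to 4.00%, each below all 6 db/db libraries. These shares rested on 11 to 42 reads of both arms per WT library and on 25 to 109 per db/db library, so single intervals were wide, as in WT library 4, where 0 of 11 reads gave an interval of 0 to 28.5%.

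Within db/db, library 5 at 54.1% (44.3 to 63.7) and library 2 at 19.6% (10.2 to 32.4) had intervals that did not overlap; these are the highest and the lowest of the 6 libraries. With the reads of each genotype summed, the share was 35.6% of 360 reads (30.6 to 40.7) in db/db and 14.2% of 162 reads (9.22 to 20.5) in WT. These 2 intervals leave out the spread between libraries, so they do not compare the genotypes. db/db library 5 alone gave 109 of the 360 reads. Because the reads of miR-7a-5p can come from Mir7-1 and Mir7-2, the share is not that of a single hairpin. The arm that would mark Mir7-2, miR-7a-2-3p, has no row among those listed.

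**Figure D3:**
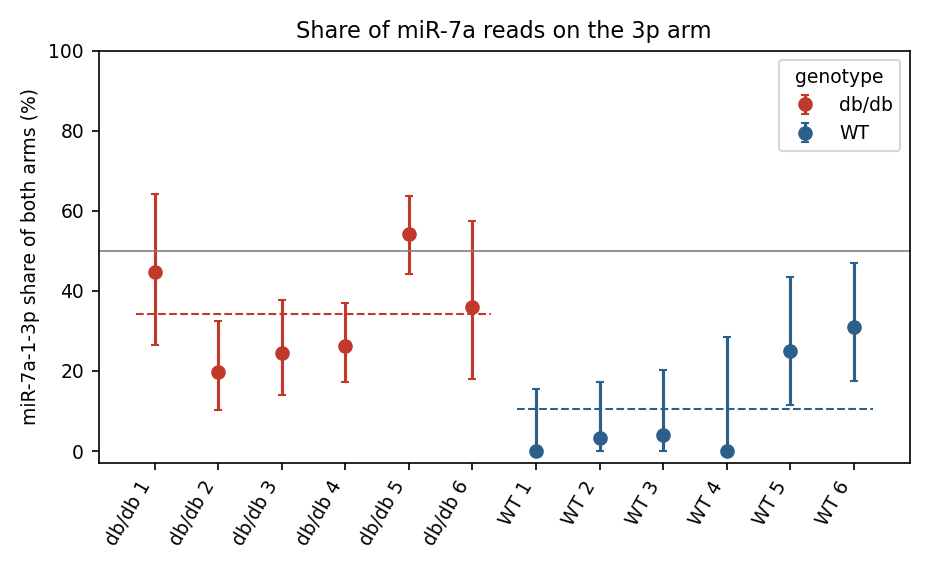
Share in % of the reads of both miR-7a arms that were miR-7a-1-3p (y axis) in each db/db library (red) and WT library (blue), with exact binomial 95% intervals and dashed genotype means. The grey line marks equal reads of both arms; db/db library 5 lies above it at 54.1%, and 4 WT libraries lie at or below 4.00%.

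The shift in arm balance was compared with that of other microRNAs. Both rows were tested for 173 pairs of a 5p and a 3p row. Over all libraries the less abundant arm, by mean RPM, held a median of 5.23% of a pair's reads, against 28.9% for miR-7a, and 23 pairs had a larger share than miR-7a. On the log2(RPM + 1) scale, the ratio of the less to the more abundant arm was higher in db/db than in WT by 2.37 for miR-7a, the second largest of the 173 differences, or by 2.12 without db/db library 6 and WT library 4. This value is the difference of miR-7a-1-3p less that of miR-7a-5p, so it carries the values that chose the arms and nothing is read from its rank. WT libraries 1 and 4 had 0 reads of miR-7a-1-3p, so their ratio was set by the pseudocount and miR-7a-5p. WT libraries 2 and 3 had 1 read each. At a pseudocount of 0.1 RPM the differences of miR-7a-1-3p and miR-7a-5p were 4.25 and 0.58, and at 10 RPM 1.29 and 0.47. The value of 2.37 therefore depends on the pseudocount. Over the 173 pairs the median was -0.03 and the 5th and 95th percentiles were -1.46 and 1.99. Low rows spread widely: in the 54 pairs whose less abundant arm averaged 7.08 to 28.3 RPM, a range of 2 times to either side of miR-7a-1-3p, the median was 0.06, the lowest -4.04 and the highest of the other pairs 2.36. For 0 of the 173 pairs (0.00%), and so not for miR-7a, did the ratio of every db/db library lie above that of every WT library. For 2 pairs (1.16%), miR-31 and miR-434, named after their values were seen, it lay below that of every WT library, with differences of -1.69 and -4.04. miR-31-3p averaged 0 RPM in db/db and 3.23 RPM in WT libraries, so the db/db ratio of that pair was set by the pseudocount and miR-31-5p.

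**Figure D4:**
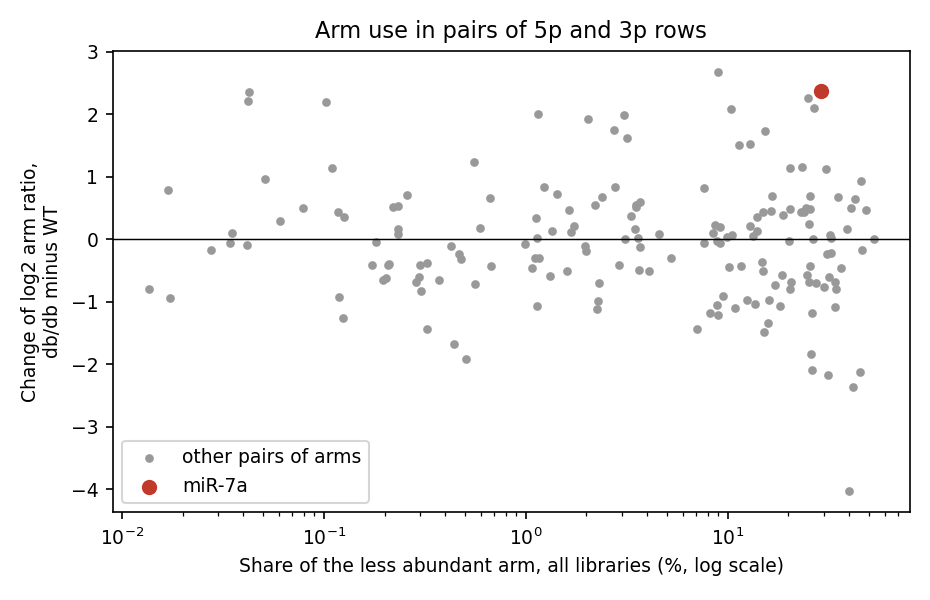
Difference of db/db minus WT in the log2 ratio of the less to the more abundant arm (y axis) against the share in % of the less abundant arm over all libraries on a log axis (x axis), for 173 pairs of 5p and 3p rows. miR-7a (red) lies at 28.9% and 2.37.

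No relation between the levels of the 2 arms from library to library passed the test. Across the 12 libraries, on the log2(RPM + 1) scale, Pearson's r was 0.43 (permutation test, two-sided, p = 0.161, adjusted p = 0.483) and Spearman's rho was 0.53 (permutation test, p = 0.0801, adjusted p = 0.481). Within db/db r was -0.012 (exact permutation test, n = 6, p = 0.979, adjusted p = 1) and rho was -0.029 (exact p = 1). Within WT r was 0.12 (exact permutation test, n = 6, p = 0.80, adjusted p = 1) and rho was 0.14 (exact p = 0.778). The 6 values of p were adjusted together. Without db/db libraries 4 and 2, the farthest from the median of miR-7a-5p, r was 0.28 (permutation test, p = 0.424), and without db/db library 6 and WT library 4 it was 0.27 (permutation test, p = 0.451). The values over both genotypes carry the differences by which the arms were chosen, and their permutations ignored genotype. Only those within a genotype are free of this. At 6 libraries a genotype, a moderate or even a strong relation could be missed. WT libraries 1 to 4 also had 0 or 1 read of miR-7a-1-3p, so counting error weighs on the values within WT. The values within a genotype therefore do not show that the arms vary independently. db/db library 1 had the lowest guide level of its genotype and a share of 44.8% (26.4 to 64.3) on the other arm, and db/db library 4 the highest guide level and a share of 26.2% (17.2 to 36.9). Guide reads are part of the denominator of the share, so a low guide level by itself raises it. No relation is read from these 2 libraries.

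**Figure D5:**
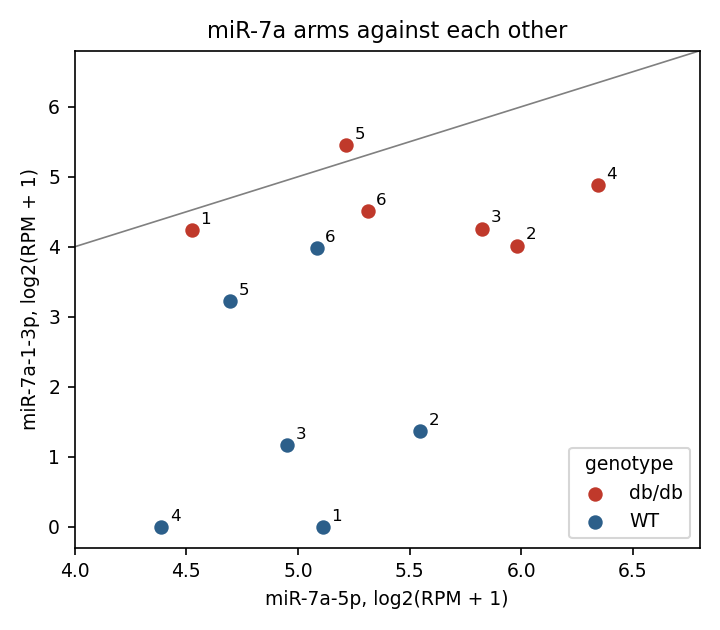
Level of miR-7a-1-3p (y axis) against miR-7a-5p (x axis), both as log2(RPM + 1), with 1 numbered point for each db/db library (red) and WT library (blue). On the grey line both arms are equal; db/db library 5 alone lies above it, and the 4 lowest WT libraries lie between 0 and 1.37 on the y axis.

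Of the rest of the miR-7 family only miR-7b-5p had a row, and its levels were at or near the limit of detection. miR-7b-5p, a guide that is strong in the hypothalamus, had 2 reads in all in db/db libraries (1 each in libraries 1 and 4) and 2 in all in WT libraries (both in library 1). It averaged 0.445 ± 0.689 RPM in db/db and 0.508 ± 1.25 RPM in WT libraries (SD, n = 6 each) and did not pass the filter. Each of its levels was below the worth of 3 reads, so no difference could be detected at this depth. miR-7a-2-3p and miR-7b-3p have no row in the table, so their levels are not known here. By mean level miR-7a-5p ranked 199 and miR-7a-1-3p 262 among the 730 rows with a mouse microRNA name.

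Markers of other tissues known for miR-7 were looked at beside the arms. miR-375-3p, the main microRNA of the islet, was above 0 in 1 of the 12 libraries, at 1.29 RPM in db/db. The 4 islet and pituitary markers summed to 4.85 to 35.9 RPM in db/db and 0 to 23.6 RPM in WT libraries, overlapping ranges. Most of that sum was miR-200a-3p, averaging 7.29 RPM in db/db and 7.94 RPM in WT, and miR-184-3p, at 6.29 and 3.87 RPM. miR-141-3p was above 0 in 1 library. The sum therefore says little about miR-375-3p. The 8 neuron markers summed to 759 to 984 RPM in db/db and 651 to 746 RPM in WT libraries, ranges that did not overlap. Of that sum miR-128-3p, which muscle also expresses, averaged 736 ± 77.6 RPM in db/db and 580 ± 57.8 RPM in WT libraries (SD, n = 6 each). It was the other of the 2 rows whose db/db libraries all lay above the WT libraries. Without it the neuron markers summed to 72.5 to 172 RPM in db/db and 66.3 to 163 RPM in WT libraries, a sum taken after the values were seen. Among the neuron markers miR-153-3p was at 0 in every library, and the neuron-specific miR-124-3p averaged 14.2 ± 21.1 RPM in db/db and 6.24 ± 5.33 RPM in WT libraries. Its highest level was 50.9 RPM and its log2 difference was -0.01. miR-9-5p averaged 91.3 RPM in db/db and 71.1 RPM in WT. The means of miR-9-3p (5.90 RPM in db/db and 12.6 RPM in WT), miR-138-5p (5.49 and 7.66), miR-129-5p (1.32 and 7.14) and miR-137-3p (0.633 and 1.74) were lower in db/db.

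Markers of blood and liver varied within each genotype. The 3 red blood cell markers summed to 293 to 3852 RPM in db/db and 895 to 1717 RPM in WT libraries. The 4 leukocyte markers summed to 2906 to 6701 RPM in db/db and 3225 to 5087 RPM in WT libraries. Most of that sum was the lymphocyte microRNA miR-150-5p, at 4196 ± 1385 RPM in db/db and 3570 ± 777 RPM in WT libraries. The myeloid miR-223-3p averaged 232 ± 48.6 RPM in db/db and 383 ± 78.3 RPM in WT libraries (SD, n = 6 each). It was one of the 4 rows whose db/db libraries all lay below the WT libraries (0.619%). The liver marker miR-122-5p was at most 22.0 RPM in db/db and 27.5 RPM in WT libraries. The 5 heart muscle markers, mostly miR-133a-3p, summed to 337995 to 439553 RPM in db/db and 366764 to 420533 RPM in WT libraries. Of the 22 marker rows tested, 0 passed a limma adjusted p under 0.05, in the table where 0.155% of rows did. The part of these cell types in the level of miR-7a-1-3p was not tested.

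The rows most like each arm were named by Pearson's r over the 12 libraries on the log2(RPM + 1) scale, among the 287 microRNAs with a mean of at least 10 RPM. For miR-7a-1-3p they were miR-34c-5p (r = 0.76), of the p53-induced miR-34 family, miR-31-5p (0.74) and miR-99a-5p (0.72). miR-34c-5p averaged 25.4 ± 13.3 RPM in db/db and 16.1 ± 13.7 RPM in WT libraries, and miR-31-5p 401 ± 30.6 RPM in db/db and 269 ± 53.5 RPM in WT libraries (SD, n = 6 each). Within db/db alone these r were 0.53, 0.28 and -0.10, and within WT alone 0.81, 0.21 and 0.85, in the same order. For miR-7a-5p they were miR-23a-5p (r = 0.73), the lesser arm of miR-23a, miR-182-5p (0.71) and miR-541-5p (0.69). Their r within db/db were 0.69, 0.78 and 0.83 and within WT 0.65, 0.68 and 0.57. The other arm ranked 24 among the 286 candidates for miR-7a-1-3p and 15 for miR-7a-5p. These correlations are the highest of many and share the libraries and their depth, so they are a description. Those over the 12 libraries also carry the genotype differences by which the arms were chosen.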

How the data were processed

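Small RNA was sequenced from 6 db/db and 6 WT samples of cardiac mitochondria. Per the labels' protocols, adapters were joined to both ends of the RNA before cDNA synthesis, PCR and gel purification. Ligation favours some sequences, so levels of 2 arms are not equally calibrated. The authors deposited values named TPM. All columns share 1 sum, and each value is a whole number of reads with no length term, so these deposited values are RPM, whatever their name. Per the submitters' processing notes the build was GRCm39. How reads were aligned, annotated and, where they match several rows, counted is not given in the sources used here.

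Reads were recovered from RPM with 1 whole total per library: 100% of values were then whole to within 0.01 read. These totals averaged 798579 ± 316652 in db/db and 747539 ± 159277 in WT libraries, and did not differ beyond their spread (SD, n = 6 each; two-sided exact permutation test, p = 0.777). Of 66 pairs of libraries, none looked like 1 library deposited again (chi-square per degree of freedom at least 18.6).

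The members and lists, the omission of db/db library 6 and WT library 4 and most alternatives were chosen with earlier results of these data known. In R 4.3.3, limma 3.58.1 was fitted to log2(RPM + 1) with a trend of variance on abundance, over the 646 rows averaging at least 1 RPM, without a replicate block, with Benjamini-Hochberg adjustment, called under 0.05. On this scale the difference of a low row need not equal the log2 ratio of its mean RPM, and can be smaller or larger. The recovered reads were also fitted with DESeq2 1.42.0 and with the quasi-likelihood test of edgeR 4.0.16. limma was tested on simulated data. Correlations used 100000 permutations, or all of them within a genotype. Named microRNAs were the 2 members, the miR-7 family, the 3 rows most like each member and the markers; miR-26a-2-3p and the arm pairs of miR-31 and miR-434 were named after their values were seen. Folding used ViennaRNA 2.7.2, and other steps Python 3.11.15, SciPy 1.17.1 and matplotlib 3.10.9.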

Additional observations from a re-analysis of the deposited data

Results flagged for a closer look

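A search of 12 groups of 6 values for an isolated library found 2; by chance about 1 in 20 groups, 0.6 of these, would hold one. Among WT libraries miR-7b-5p was above 0 in library 1 alone, at 3.05 RPM or 2 reads, so its gap was 1, the whole range; that level is below the 4.58 RPM that a count of 0 allows there. Among db/db libraries, library 5 had 1382046 recovered reads and the next deepest had 773784, a gap of 0.628 of the range. Library 5 was also the library with the highest level and share of miR-7a-1-3p; without it the log2 difference of that arm was 2.76, against 2.94 with it.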

How the results depend on the processing

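The groups of miR-7a-1-3p did not overlap, so no omission of libraries or change of pseudocount could reverse the sign of its log2 difference. That difference was positive in all 21 alternatives, and nothing is read from its sign. It was 4.25 with a pseudocount of 0.1 RPM and 1.29 with 10 RPM, against 2.94; the added constant weighs on a row with zeros. It was 2.62 without WT 4 and db/db 6, and 2.61 to 3.41 with 1 library left out. The ratio of its mean levels was 4.64 to 10.8 with 1 library left out, the highest without WT 6, an alternative added after the values were seen. The difference of miR-7a-5p stayed between 0.41 and 0.77 in all 21 alternatives. The difference in the miR-7a-1-3p share stayed between 19.7 and 27.8 percentage points in all 15. Pearson's r between the arms passed no threshold in any of 19 alternatives and was below 0 in db/db libraries alone (-0.012); with 1 library left out it was 0.26 to 0.55. Without miR-128-3p, an alternative chosen after seeing the data, the neuron markers' median sum in db/db minus WT was -0.453 RPM in place of 161 RPM.

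In place of 1 row called, limma gave 0 after quantile normalization, without a trend, at either other pseudocount, with rows averaging at least 10 RPM, with all rows, and without WT 4 and db/db 6 (36 to 56 at an unadjusted p under 0.05). It called 2 after TMM or median-of-ratios scaling, 2 higher and 0 lower in db/db, while the 1 row called in the main fit was lower. edgeR called 3 and DESeq2 8. Leaving out 1 library gave 0 to 7 calls: omitting db/db 5 gave 7, WT 1 or WT 3 gave 6, db/db 4 gave 3, db/db 6 gave 1 and any other gave 0 (35 to 56 at an unadjusted p under 0.05). The cause was not tested.

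With the replicate number as a block limma called 9 rows (3 higher, 6 lower), and neither arm (0 of 2) was among them, again as a description. Each number occurs once in each genotype, so the block cannot move the arms' differences of 2.94 and 0.57. The labels do not say that a number pairs samples: same-numbered libraries deviated together with r of -0.049 to 0.12, and for 1 of 6 numbers was the db/db library most like the WT library of its own number.

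The arm share rested on 11 to 109 reads in each library, which limits its precision.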
